A study of Mus musculus with 24 samples.

Results

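Interferon-signature CD8+ T cells were CD8+ T cells of Panc02 tumors in which at least 2 UMIs of *Ifit1* plus *Ifit3* were counted, a pair of genes switched on by interferons. A UMI (unique molecular identifier) stands for a captured RNA molecule. The cells were selected on measured values. A cell barcode was taken with at least 1000 UMIs and under 10% mitochondrial UMIs, at least 1 UMI of *Cd3d*, *Cd3e* or *Cd3g* (the T cell receptor complex), at least 1 UMI of *Cd8a* or *Cd8b1*, no UMI of *Cd4* or of the proliferation gene *Mki67*, at most 1 UMI of the macrophage gene *C1qb*, and at least 2 UMIs of *Ifit1* plus *Ifit3*. This rule chose 509 cells, called members here. They were 4.96% of the 10255 CD8+ T cells that passed the same gate without the *Ifit* condition, out of 120912 barcodes past the limits on UMIs and 144994 barcodes in all. The 9160 CD8+ T cells of the gate with *Ifit1* and *Ifit3* at 0 served as the other CD8+ T cells, and the 586 cells with 1 UMI were left out of both groups.

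Panc02 is a mouse pancreatic cancer line, and the study asked how PancVAX, a vaccine of peptides that carry its mutations, and antibodies that block the inhibitory T cell receptors PD-1 and CTLA-4 changed the cells inside the tumor. WT male C57BL/6 mice aged 6 to 7 weeks received 3000000 Panc02 cells under the skin of the flank, and tumors were taken on day 38 after implantation. Isotype control, anti-PD-1, anti-CTLA-4 and the pair of antibodies made 4 treatments, and each of these with PancVAX added made 4 more, and mice of the group called PancVAX received isotype antibodies by the study's methods. PancVAX (50 µg of each peptide by the study's methods, with an adjuvant and an agonist of STING, a sensor protein that induces interferon) was injected on days 12 and 19, anti-PD-1 (100 µg) from day 12 onwards, and anti-CTLA-4 (100 µg) on days 15 and 22. Cell number, days and doses of antibody are those of the labels, and elsewhere the study gives fewer cells, an earlier harvest and an earlier second dose of anti-CTLA-4. The effects of the peptides, the adjuvant and the STING agonist cannot be told apart. Tumors were pooled within a treatment, and the number of mice in a pool was not given in the sources used here. Each treatment was sequenced as a whole-tumor library and as a Percoll library enriched for immune cells, and these 2 preparations were also the 2 sequencing batches. Whether both held the same mice was not given either, and "pool" here means the sum of the whole-tumor and the Percoll library. T cell receptors were read in the 8 Percoll libraries. A P value therefore measures the spread between 8 pools, and may not be the spread between mice.

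Type I and type III interferons bind their receptors and switch on many genes through a complex of transcription factors that binds a short DNA element in the promoters of its targets. The products of these genes block viral RNA and protein synthesis, sense foreign nucleic acid, present antigen and pass the alarm on to other cells. In tumors, T cells that carry this program have been described beside the cytotoxic, exhausted and memory-like states, and the program can be set off by interferon from other cells as well as by innate sensing such as the STING pathway.

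The promoters of the 4 marker genes, *Ifit1*, *Ifit3*, *Isg15* and *Rsad2*, are shown because their RNAs marked the same cells. The stretches are the 160 bases just upstream of the RefSeq start on the strand of the gene (GRCm38.p6), 5′ to 3′. Capitals mark every match to the letters GAAA, any 2 bases and GAAA, the core of the interferon-stimulated response element, on either strand, and overlapping matches merge into 1 run of capitals.
*Ifit1* (chr19:34640729-34640888, plus strand): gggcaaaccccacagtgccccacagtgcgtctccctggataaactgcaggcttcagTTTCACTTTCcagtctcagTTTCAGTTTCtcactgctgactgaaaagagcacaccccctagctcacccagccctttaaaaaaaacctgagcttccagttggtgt
*Ifit3* (chr19:34583369-34583528, plus strand): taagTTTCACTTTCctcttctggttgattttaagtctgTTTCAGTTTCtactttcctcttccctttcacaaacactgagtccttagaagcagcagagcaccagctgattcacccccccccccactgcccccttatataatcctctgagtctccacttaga
*Isg15* (chr4:156200819-156200978, minus strand): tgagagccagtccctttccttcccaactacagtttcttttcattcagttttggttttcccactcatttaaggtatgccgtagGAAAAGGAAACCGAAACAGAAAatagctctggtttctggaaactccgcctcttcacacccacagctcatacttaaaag
*Rsad2* (chr12:26456453-26456612, minus strand): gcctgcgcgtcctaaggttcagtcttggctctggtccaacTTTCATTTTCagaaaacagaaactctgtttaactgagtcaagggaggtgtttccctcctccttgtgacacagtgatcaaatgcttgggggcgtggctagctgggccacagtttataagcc

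Within 250 bases upstream of the start, GAAA, any 2 bases and GAAA was found on either strand in 4 of the 4 markers. It was found in 978 of all 32851 promoters of the same length (2.98%) and in 5.35% of the genes at the level at which members were described. Of *Ifit1*, *Ifit3* and the 15 genes with the highest ratio of members to other CD8+ T cells, 15 had a sequence and 10 held the match. Of the 10 genes with the lowest ratio, 8 had a sequence and 0 held it. The match was present in 10 of 11 guanylate binding proteins and immunity-related GTPases, in 14 of 33 interferon-induced effectors, in 3 of 16 genes of MHC class I presentation, in 2 of 13 sensors and regulators and in 0 of 8 receptor, kinase and ligand genes. A match describes the letters of the promoter and not a bound site.

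The cut at 2 UMIs fell on a continuous scale. *Ifit1* plus *Ifit3* was at 1 UMI in 586 CD8+ T cells, at exactly 2 in 178, at 3 in 78, at 4 to 5 in 104 and at 6 or more in 149, with a maximum of 51. Both genes were detected in 345 of the 509 members. Cells just outside the cut, with 1 UMI, had *Isg15* detected in 54.3% and *Rsad2* in 7.34%. Cells just inside, with 2 UMIs, had them in 82.0% and 21.3%, and cells with 6 or more in 98.0% and 65.8%. The cells with 1 UMI thus lay between the cells at 0, with 30.1% and 1.46%, and the members. The median total was 3688 UMIs per member and 4020.5 per other CD8+ T cell over all libraries, which contributed unequally, and the order differed between libraries. In the whole-tumor library of PancVAX and both antibodies the medians were 2774 and 3099.5, and in the Percoll library of both antibodies alone 6837 and 5153. Cells above 10000 UMIs, which can hold more than 1 cell, were 11.4% of the members and 9.42% of the others, and the 58 such members held 46.5% of all member UMIs.

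**Figure D1:**
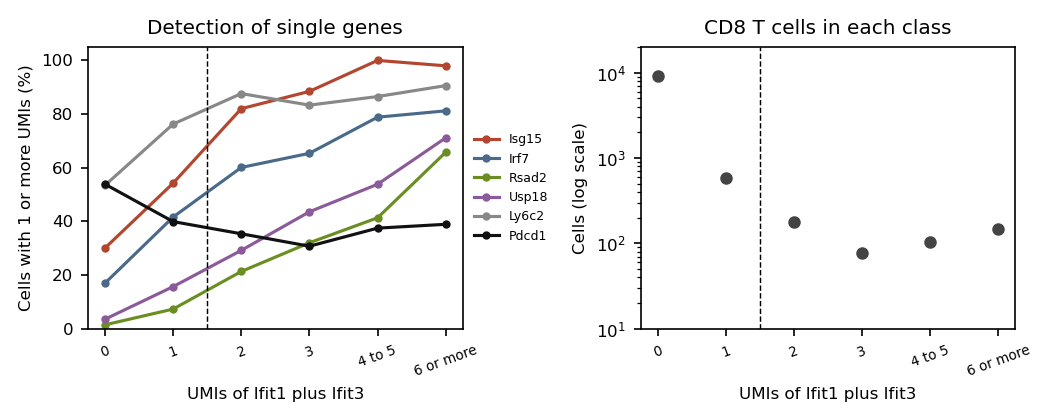
Left, the percentage of CD8+ T cells with 1 or more UMIs of 6 genes (vertical axis) by the UMIs of *Ifit1* plus *Ifit3* in the cell (horizontal axis); right, the number of cells in each class on a log scale. The dashed line marks the cut: *Isg15* was detected in 30.1% of cells at 0 and 82.0% at 2 UMIs, while *Pdcd1* was detected in 53.9% and 35.4%.

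Members and other CD8+ T cells differed by the rule itself, so the following levels describe the members and were not tested. Levels are UMIs per 10000 of a cell, averaged within a library, and ratios are the median over 16 libraries of the log2 ratio with 0.1 added to both levels. Ratios were ranked among the 2749 genes with a mean level of at least 0.5 in either group, called the described level, with *Ifit1* and *Ifit3* left out. Of these genes 237 reached that level in the members alone and so had a higher mean there by construction, and lists are therefore counted over every measured gene and over the 2512 genes at this level in the other CD8+ T cells. *Isg15* (a ubiquitin-like protein attached to other proteins) and *Rsad2* (viperin, an antiviral enzyme), the markers that the rule did not use, were detected in 91.4% and 40.1% of members. In the other CD8+ T cells they were detected in 30.1% and 1.46%. *Rsad2* had the highest ratio of these genes (3.99, from 2.24 to 4.91), followed by *Isg15* (3.73, from 3.10 to 4.18), and both were higher in members in 16 of 16 libraries. Both markers left out of the rule were thus high in the cells that the rule chose.

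The genes next in rank were other parts of the same program. *Usp18* (3.58), which removes ISG15 and damps the receptor, *Cmpk2* (3.44), a mitochondrial nucleotide kinase, *Slfn5* (3.43) and *Slfn1* (2.72), of the Schlafen family, and *Ifit3b* (3.30), *Ifit2* (2.71) and *Ifit1bl1* (2.57), relatives of the rule genes that can share their reads, were among the 15 highest. *Rtp4* (3.00), *Cxcl10* (2.96), a chemokine that attracts CXCR3+ T cells, *Irf7* (2.63), the factor that amplifies the interferon response, *Ifi208* (2.93), *Ifi209* (2.62) and *Phf11a* (2.50) completed the group. Of the 42 interferon-induced effectors measured beside the rule genes, 41 had a positive median ratio and 34 were higher in at least 14 libraries, where 0.970% of all 19904 genes with a UMI were. Only 12 of the 42 were at the described level in the other CD8+ T cells, and 12 of these 12 were higher in at least 14 libraries, against 3.74% of the genes at that level.

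Of the 17 sensors and regulators of the response, 16 had a positive ratio and 12 were higher in at least 14 libraries. *Ifih1*, which senses viral RNA (2.47), and *Ddx58*, which encodes RIG-I (2.03), were among them. Over all genes with a UMI, 0.970% were higher in at least 14 libraries. Only 8 of the 17 were at the described level in the other CD8+ T cells. Of these 8, 7 had a positive ratio and 5 were higher in at least 14 libraries, against 3.74% of the genes at that level. *Irf8*, a factor of myeloid cells and activated T cells, was the exception and was lower in members in 16 of 16 libraries (−1.16). Among the receptor chains *Ifnar1* was at −0.17, *Ifnar2* at −0.04, *Ifngr1* at −0.29 (lower in 15 of 16 libraries) and *Ifngr2* at −0.42 (lower in 12). Of the 8 receptor, kinase and ligand genes, 4 had a positive ratio, 0 were higher in at least 14 libraries and 1 was lower in at least 14.

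Genes of cell-autonomous defence and antigen presentation were higher too. Of the guanylate binding proteins and immunity-related GTPases, 16 of 17 had a positive ratio, among them *Igtp* (2.12) and *Gbp2* (2.00), and the 6 at the described level in the other CD8+ T cells had a median of 1.97. Of the genes of MHC class I presentation, 16 of 17 had a positive ratio too, and the 16 at that level had a smaller median of 0.46. *Tap1*, the peptide transporter, was at 2.39 against 1.60 UMIs per 10000, and *H2-K1* was at 33.6 against 28.6.

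The genes of exhaustion, the state of chronically stimulated T cells, were mostly lower in members. Of the 18 genes, 16 had a negative median ratio, against 11988 of the 19904 genes with a UMI, and 12 were lower in at least 14 libraries, against 6.43%. *Eomes* (0.18) and *Cd101* (0.16) were positive. The 12 at the described level in the other CD8+ T cells were all negative, as were 1846 of the 2512 genes at that level, and 10 of the 12 were lower in at least 14 libraries, against 9.12%. *Tnfrsf9* (4-1BB) was at −2.30, *Rgs16* at −2.10, *Tox*, the factor that maintains exhaustion, at −0.99, *Pdcd1*, which encodes PD-1, at −0.83 and *Lag3* at −0.65. *Pdcd1* was detected in 36.1% of members and 53.9% of the others.

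Of the 25 cytotoxic genes, 9 had a positive and 15 a negative ratio. At the described level in the other CD8+ T cells these were 7 and 13 of 20, a split near that of all 2512 genes at this level (666 and 1846). *Ly6c2*, a surface protein of effector and memory cells, was detected in 87.6% of members and 53.5% of the others (1.06), and *Gzmb* (granzyme B) in 83.1% and 60.6% (1.02). *Prf1* (perforin) was at −0.56 and *Nkg7* at −0.10. The granzymes of repeatedly activated cells were among the lowest ratios, with *Gzmf* at −3.49, *Gzmc* at −2.65 and *Gzmd* at −2.21. *Cxcl2* (−2.55), *S100a9* (−2.28) and *S100a8* (−1.94), transcripts of neutrophils, and the receptor segments *Trbv20* (−1.90) and *Trbv26* (−1.89) were also among the 10 lowest. The mean levels of the neutrophil transcripts ran the other way, with 3 or 4 of the 16 libraries higher in members: *S100a8* was at 1.37 UMIs per 10000 in members and 0.808 in the others, *S100a9* at 1.52 and 1.20 and *Cxcl2* at 1.56 and 1.38.

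**Figure D2:**
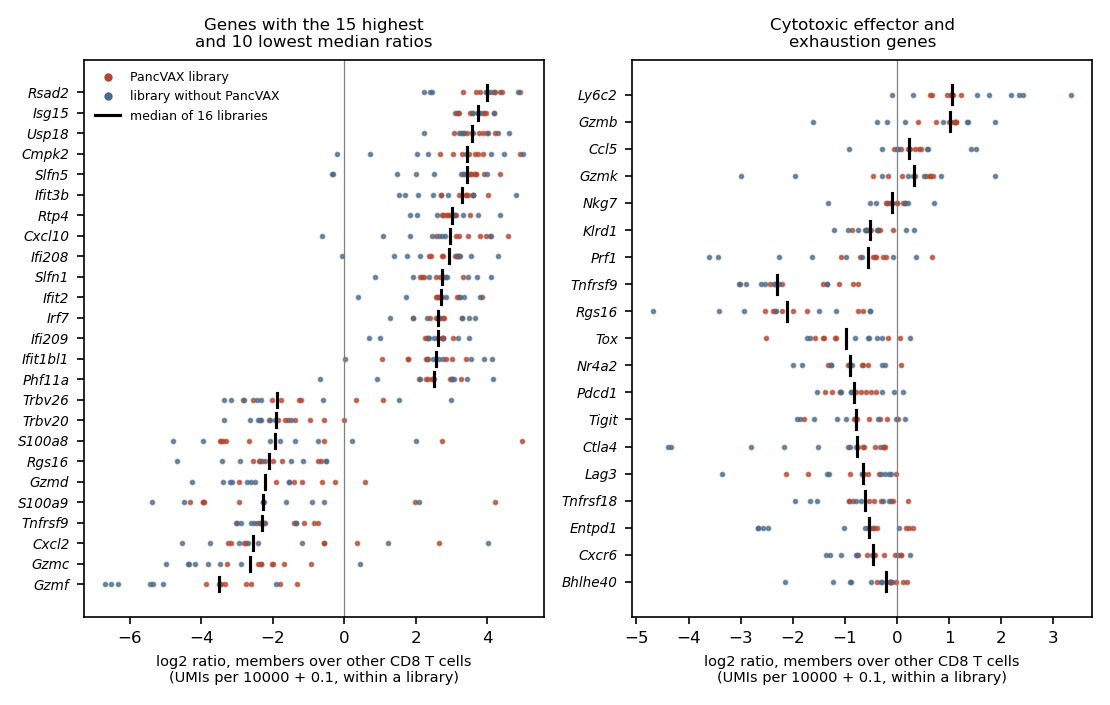
Log2 ratio of members to other CD8+ T cells within each of 16 libraries (horizontal axis; UMIs per 10000 with 0.1 added), for the 15 highest and 10 lowest genes (left) and for some of the cytotoxic effector and exhaustion genes (right). Most of the cytotoxic list, with 9 positive and 15 negative ratios, is not shown, nor are the positive exhaustion genes *Eomes* and *Cd101*. Points are libraries, red with PancVAX and blue without, and bars are medians; every library lies above 0 for *Rsad2* and *Isg15* and below 0 for *Tnfrsf9* and *Gzmf*.

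Transcripts of other cell types were present in both groups. The summed level of 11 macrophage and monocyte genes ranged over pools from 7.53 to 10.3 UMIs per 10000 in members with PancVAX and from 7.91 to 37.3 without it, and 0 of the 11 were at 0. In the other CD8+ T cells it ranged from 9.17 to 17.2 and from 9.56 to 12.2. The 5 neutrophil genes ranged from 0.0279 to 13.9 and from 0 to 3.39 in members, and from 0.779 to 3.79 and from 0.657 to 3.80 in the others. The 6 tumor and stroma genes ranged from 2.54 to 7.78 and from 1.97 to 6.64 in members, and from 1.94 to 4.38 and from 1.48 to 3.43 in the others. The 6 B cell and plasmacytoid dendritic cell genes, which include the interferon-induced *Bst2*, summed to 7.97 to 12.6 and 6.94 to 11.2 in members, and to 2.25 to 2.68 and 1.67 to 1.86 in the others, so the ranges of members and others did not overlap. Of the 5 NK and gamma-delta T cell genes, which summed to 0.248 to 0.483 and 0.377 to 2.77 in members and 0.556 to 0.809 and 1.02 to 1.51 in the others, *Ncr1* was at 0 in the members. The 4 red cell genes summed to at most 0.106 in members and 0.0170 in the others. The 8 genes of dissociation stress summed to 34.7 to 60.3 and 29.9 to 53.4 in members and 31.9 to 38.8 and 28.5 to 33.6 in the others, so the highest pools were those of members. The part of these transcripts in the results was not tested. A cell barcode sequence was shared by 2 members of different libraries in 1 case, and 71 members had a sequence that passed the limits in another library. Of the 111955 sequences past the limits, 8502 were in more than 1 library. That is a count of sequences and not of cells, so nothing is read from the 71.

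Members were a larger share of the CD8+ T cells in every pool with PancVAX than in any pool without it. They were 10.2% with PancVAX alone (116 of 1136 cells, exact binomial 95% CI 8.51% to 12.1%), 5.49% with PancVAX and anti-PD-1 (125 of 2275), 5.79% with PancVAX and anti-CTLA-4 (79 of 1364) and 6.04% with PancVAX and both antibodies (106 of 1754). Without PancVAX they were 2.54% in isotype control (17 of 668, 1.49% to 4.04%), 3.74% with anti-PD-1 (33 of 882), 0.840% with anti-CTLA-4 (9 of 1072) and 2.17% with both antibodies (24 of 1104). PancVAX alone stood highest, and the other PancVAX pools lay close together, so the groups did not overlap. The intervals cover counting error only.

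The mean share was 6.89% ± 2.23 with PancVAX and 2.32% ± 1.20 without it (SD, n = 4 pools each), a difference of 4.56 percentage points (exact permutation test, two-sided, over the 70 ways to split 8 pools, P = 0.0286, the smallest that this design can give). Adjusted over the 3 agents by the Benjamini-Hochberg method, the exact P was 0.0857, which misses 0.05. The difference ranged from 3.45 to 5.03 points when each pool was left out in turn. The whole-tumor libraries gave 7.27% and 2.45% and the Percoll libraries 6.49% and 2.25%, so the difference was present within each batch. Fewer cells with interferon-induced RNA and less of this RNA per cell cannot be told apart by a count of cells above a UMI cut.

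The shares of pools with and without each antibody overlapped. The mean share was 4.36% ± 1.76 with anti-PD-1 and 4.85% ± 4.12 without it (difference −0.48 points, exact permutation P = 0.857, adjusted 0.857, n = 4 pools each). It was 3.71% ± 2.61 with anti-CTLA-4 and 5.50% ± 3.37 without it (difference −1.79 points, exact permutation P = 0.486, adjusted 0.729, n = 4 pools each). Each of these groups held 2 pools with PancVAX and 2 without it, so their overlap, SDs and P values carry the PancVAX difference.

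**Figure D3:**
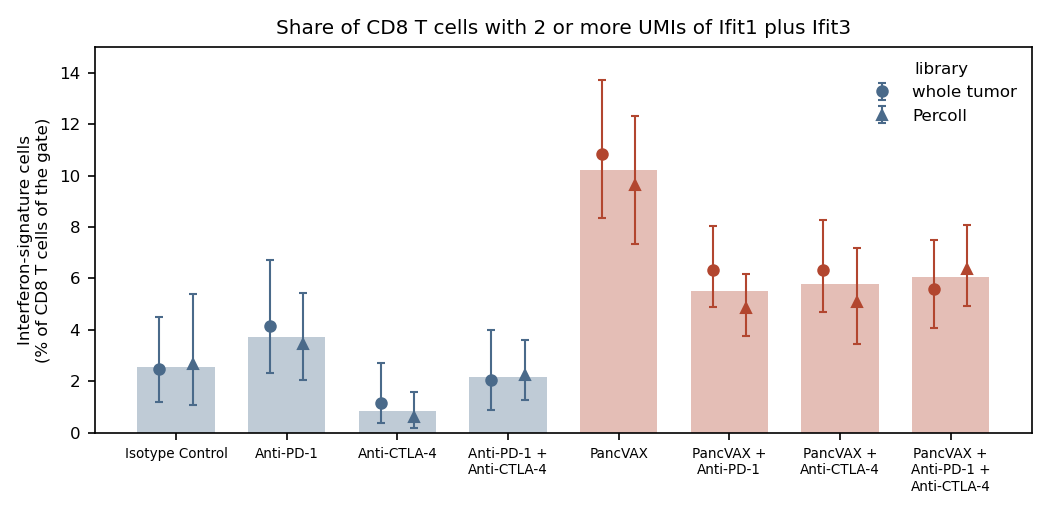
Members as a percentage of the CD8+ T cells of the gate (vertical axis) in each of 8 treatments; bars are pools of both libraries, and points are the whole-tumor (circle) and Percoll (triangle) libraries with exact binomial 95% intervals. All PancVAX pools (red) lie at 5.49% or above, and all pools without it (blue) at 3.74% or below.

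The median CD8+ T cell had 3433.5 to 3614 UMIs in the PancVAX pools and 4335 to 5309.5 UMIs in the pools without PancVAX. When every cell was thinned to 1000 UMIs, the mean shares were 2.61% and 0.527% (exact permutation P = 0.0286). As a share of all barcodes past the limits, members were 0.711% with PancVAX and 0.147% without it.

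No such separation was seen in CD4+ T cells or in macrophages of the same tumors. CD4+ T cells were taken by the same gate with *Cd4* UMIs and without *Cd8a* or *Cd8b1* UMIs. Only 4 to 10 of them per pool with PancVAX and 1 to 8 without it reached 2 UMIs of *Ifit1* plus *Ifit3*. A difference like that in CD8+ T cells could be missed at such counts. CD4+ T cells with at least 2 UMIs of *Ifit1* plus *Ifit3* were 7.52%, 2.24%, 1.87% and 2.25% of 133 to 312 cells in the pools with PancVAX, PancVAX with anti-PD-1, PancVAX with anti-CTLA-4 and PancVAX with both. Without PancVAX they were 4.71% in isotype control, 1.89% with anti-PD-1, 1.11% with anti-CTLA-4 and 7.02% with both antibodies, of 85 to 114 cells, so the groups overlapped widely. The means were 3.47% and 3.68% (difference −0.21 points, exact permutation P = 0.971, n = 4 pools each), and with cells thinned to 1000 UMIs the difference was 0.42 points the other way. Macrophages were marked by *C1qa*, *C1qb* and *C1qc* together with *Lyz2* or *Apoe*, and had no UMI of *Cd3d*, *Cd3e* or *Cd3g*. Their means were 5.11% and 5.59% (difference −0.47 points, exact permutation P = 0.686, n = 4 pools each), and the difference was 0.12 points the other way when thinned.

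The contrast between cell types was tested as a difference of shares within a pool, and its P values were not adjusted. CD8+ minus CD4+ T cells was 3.41 points with PancVAX and −1.36 points without it (difference 4.77, exact permutation P = 0.0286, n = 4 pools each). In the Percoll libraries alone it was 3.65 points (exact permutation P = 0.229), and without any 1 of the 4 PancVAX pools it was 4.60 to 5.01 points (exact permutation P = 0.0571). CD8+ T cells minus macrophages gave 1.77 and −3.26 points (difference 5.03, exact permutation P = 0.0286, n = 4 pools each). The cut counts UMIs, and the shares fell when cells were thinned to 1000 UMIs. The thinned means with and without PancVAX were 2.61% and 0.527% in CD8+ T cells and 1.29% and 0.865% in CD4+ T cells. In macrophages they were 0.783% and 0.661%, so both contrasts were smaller in thinned cells.

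*Ly6c2* differed between the groups in the whole gate, so the share was also taken within cells with and without it, a division chosen after the data had been seen. *Ly6c2* was detected in 66.8% to 75.9% of CD8+ T cells of the PancVAX pools and in 25.9% to 36.4% of those without PancVAX. Among CD8+ T cells with *Ly6c2*, members were 8.83% with PancVAX and 5.11% without it (exact permutation P = 0.143, n = 4 pools each). Among those without *Ly6c2* they were 1.65% and 1.08% (exact permutation P = 0.371). Divided by *Pdcd1* instead, they were 5.01% and 1.80% of cells with *Pdcd1* and 8.37% and 3.25% of cells without it (exact permutation P = 0.0286 for both). On either side of *Pdcd1* the pools with and without PancVAX did not overlap, and on either side of *Ly6c2* they did. Among members *Ly6c2* was detected in 82.4% to 97.5% with PancVAX and 33.3% to 72.7% without it (exact permutation P = 0.0286), and the part of *Ly6c2* in the pooled difference was not tested.

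All CD8+ T cells of the gate were also summed, with no cut on *Ifit1* or *Ifit3*. These sums hold the members, whose share differed, so the values of the other CD8+ T cells alone are given beside them. Sums of UMIs per pool were compared with edgeR's quasi-likelihood test with a term for each of the 3 agents, and a gene was called at a Benjamini-Hochberg adjusted P below 0.05 and an absolute log2 fold change above 0.5. Of 12144 genes tested, 4.76% were called, 3.19% as higher and 1.57% as lower. Of the interferon-induced effectors, 17 of 41 rose and 0 fell, with a median log2 difference of 0.62, against 0.03 over all genes. In the other CD8+ T cells alone 10 of 39 rose and 0 fell, with a median of 0.42. These cells were chosen by *Ifit1* and *Ifit3* at 0 UMIs, which a cell with fewer UMIs meets more easily. Their median was 3099.5 to 3967 UMIs in the libraries with PancVAX and 4190 to 6086 in those without it. The part of this depth in the values of the other CD8+ T cells was not tested. Without the PancVAX with anti-CTLA-4 pool 356 genes were called in all, and without the anti-PD-1 pool 373, against 578.

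*Ifit1* was at 49.5, 49.9, 26.1 and 28.1 CPM (UMIs scaled to an equal total in every pool) in the pools with PancVAX, PancVAX with anti-PD-1, PancVAX with anti-CTLA-4 and PancVAX with both, and at 8.11, 10.2, 4.07 and 8.57 in isotype control, anti-PD-1, anti-CTLA-4 and both antibodies. The log2 fold change was 2.22 for *Ifit1* and 2.07 for *Ifit3*. These are the genes of the rule, so their values restate the difference in share and are given as a description, with no test.

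*Rsad2* was at 29.3, 19.5, 16.6 and 14.5 CPM in the PancVAX pools in the same order and at 6.14, 8.23, 4.38 and 4.99 without PancVAX (log2 fold change 1.66 ± 0.17, SE, edgeR adjusted P = 0.00124). *Isg15* was at 296, 240, 202 and 219 and at 140, 146, 135 and 132 (0.74 ± 0.10, edgeR adjusted P = 0.00312). *Ifit3b* (2.28), *Slfn5* (2.11), *Cmpk2* (1.92) and *Ly6a* (1.15), which encodes Sca-1, rose as well. For *Rsad2* and *Isg15* all PancVAX pools lay above all others. In the other CD8+ T cells alone neither *Rsad2* nor *Isg15* passed, with a median of 0.56 over both and *Isg15* at 0.27 (edgeR adjusted P = 0.192). *Ifit3b* (1.80), *Cmpk2* (1.73), *Slfn5* (1.36) and *Ly6a* (1.08) rose there.

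Among the sensors and regulators, 5 of 17 rose and 1 fell. *Usp18* rose by 1.41 ± 0.27, *Irf7* by 1.30 ± 0.14, *Ifih1* by 1.15 ± 0.14, *Socs3*, an inhibitor of cytokine signalling, by 0.91 ± 0.11 and *Irf1* by 0.69 ± 0.07. *Irf8*, which was lower in members too, fell by 1.00 on the log2 scale. Of the guanylate binding proteins and immunity-related GTPases 2 of 16 rose (*Gbp6* and *Tgtp2*), of the receptor genes *Ifngr1* (0.54) and *Ifnar2* (0.55), and of the MHC class I genes 0 of 17. In the other CD8+ T cells alone the same genes of these lists were called, in the same directions.

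The same sums held rises in 12 of 25 cytotoxic effector genes and falls in 8 of 18 exhaustion genes. Of the listed genes of other cell types, *Lyz2* rose and *Fcer1g*, *Igkc*, *Cd160* and *Epcam* fell. *Ccl5*, a chemokine of effector cells, was at 10157 to 10945 CPM with PancVAX and 2337 to 3481 without it (1.77 ± 0.11). *Ly6c2* rose by 1.77 ± 0.14 and *Cxcr3*, the receptor for CXCL10, by 1.83 ± 0.12. *Tox* fell by 1.12 and *Lag3* by 0.85 on the log2 scale. In the other CD8+ T cells alone 12 of 25 cytotoxic effector genes rose and 7 of 18 exhaustion genes fell. The rises of interferon-induced genes thus stood beside a wider difference between the CD8+ T cells of both groups.

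The genes were next compared among the members alone, where every cell carried the signature. Of 5838 genes tested, 31 rose with PancVAX and 0 fell (0.531% and 0% of genes called; 725 genes had an unadjusted P below 0.05), and 0 genes changed with anti-PD-1 (0% called; 247 genes at an unadjusted P below 0.05 by edgeR, 0 called by DESeq2). Of the 31 genes, 20 were called as higher in the other CD8+ T cells as well, where 4.64% of 11909 genes were called, 3.07% as higher and 1.56% as lower, and all 31 had a positive fold change there. The pools without PancVAX held 83 members in all, and the anti-CTLA-4 pool held 9 of them, so its sum is the thinnest. The count for anti-PD-1 was 34 with a minimum of 3 UMIs of *Ifit1* plus *Ifit3*, 4 without the PancVAX with anti-PD-1 pool and 1 without the both-antibodies or the anti-CTLA-4 pool.

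Of the cytotoxic effector genes 8 of 22 rose, with a median of 0.81. *Ccl5* was at 16051, 11155, 10900 and 10026 CPM in members of the pools with PancVAX, PancVAX with anti-PD-1, PancVAX with anti-CTLA-4 and PancVAX with both. It was at 4346, 3578, 2727 and 1842 in isotype control, anti-PD-1, anti-CTLA-4 and both antibodies (log2 fold change 1.99 ± 0.12, edgeR adjusted P = 9.51e-07). *Ccl5* was called in 8 of 8 fits that left out a pool.

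*Gzmb* was at 2931, 1399, 1405 and 1399 with PancVAX and at 460, 702, 338 and 430 without it (1.84 ± 0.24, edgeR adjusted P = 0.00288). *Ifitm1*, an antiviral membrane protein of this list, was at 2988, 2282, 1915 and 2536 and at 23.8, 503, 103 and 94.8 (3.93 ± 0.47, edgeR adjusted P = 0.00181). Both genes had a pool far from its group, PancVAX alone for *Gzmb* and anti-PD-1 for *Ifitm1*, and both were called in 8 of 8 fits without a pool. *Cxcr3* (1.86), *Gzmk* (1.58), *Fasl* (1.44), *Klrk1*, which encodes NKG2D (1.42), and *Itgb1* (1.06) were the other 5. These calls were less stable: of the 8 fits that left out a pool, 3 called *Cxcr3* and *Klrk1*, and 2 called *Gzmk*, *Fasl* and *Itgb1*.

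Of the naive and memory genes 2 of 12 rose and 7 were positive, with a median of 0.16, while within the study's limits on cells 1 of 10 rose, 1 fell and the median was −0.21. *Il7r*, the IL-7 receptor of memory-forming cells, was at 206, 215, 147 and 181 CPM with PancVAX and at 47.6, 84.4, 20.5 and 32.8 without it (1.97 ± 0.27, edgeR adjusted P = 0.00409). The pools did not overlap, and *Il7r* was called in 8 of 8 fits without a pool. *S1pr1*, the receptor by which T cells leave tissue, rose by 2.01 ± 0.37 and was called in 3 of these 8 fits. Without cells that had myeloid or B cell UMIs neither gene passed, with *Il7r* at 1.10 (edgeR adjusted P = 0.263) and *S1pr1* at 1.08 (edgeR adjusted P = 0.509). Of the activation genes 1 of 12 rose, the costimulatory receptor *Icos* (1.47 ± 0.28, called in 2 of 8 fits without a pool), and 5 were positive. *Itgb7*, an integrin of homing that is on none of the lists, rose by 2.18 ± 0.29 and was called in 7 of 8. The exhaustion list had 0 of 14 calls in either direction (within the study's limits 1 of 12 rose and 1 fell, with a median of −0.33), with *Pdcd1* at −0.18 ± 0.28 and *Lag3* at −0.82 ± 0.32.

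Of the list of interferon-induced effectors, 2 of 39 tested genes rose. *Cxcl10*, named above as part of the same program, and the antiviral *Ifitm1* are not on this list, and both rose. Members were chosen by a count of UMIs and not by a level per UMI. The same cut therefore asks for a higher level in a cell with fewer UMIs. The median member had 2774 to 4495 UMIs in the libraries with PancVAX and 3805 to 6837 in those without it. The part of this depth in the values of interferon-induced genes among members, or of *Cxcl10* and *Ifitm1*, was not tested. *Rsad2* was at 239, 212, 161 and 134 CPM of the members with PancVAX and at 119, 57.3, 51.3 and 76.6 without it (1.29 ± 0.25, edgeR adjusted P = 0.0432). It was called in 1 of 8 fits without a pool, and in the Percoll libraries alone it was at 0.41 (edgeR adjusted P = 0.951). *Slfn5* rose by 2.20 ± 0.42 (edgeR adjusted P = 0.0354), was called in 4 of the 8 fits, and was at 1.49 (edgeR adjusted P = 0.218) without cells that had myeloid or B cell UMIs. The median over the list was 0.65 and 36 of the 39 were positive, against 0.00 over all genes. Within the study's limits on cells the median was 0.22, and 2 other genes of 36 rose in place of these, *Ly6a* (edgeR adjusted P = 0.0231) and *Ifitm3* (1.41, edgeR adjusted P = 0.0257), while *Slfn5* was at 1.41 (edgeR adjusted P = 0.129). With all members *Isg15* (0.65 ± 0.21, edgeR adjusted P = 0.219), *Bst2* (−0.08 ± 0.21) and *Ifitm3* (−0.24 ± 0.12) did not pass, so the direction of *Ifitm3* turned with these limits. Of the sensors and regulators, the guanylate binding proteins and the MHC class I genes, 0 of 17, 0 of 16 and 0 of 17 passed.

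*Cxcl10*, *Slpi* and *Cxcl1*, which encode secreted proteins, also rose. *Cxcl10* was at 1273, 1191, 958 and 723 CPM with PancVAX and at 95.2, 96.5, 61.5 and 241 without it (2.99 ± 0.35, edgeR adjusted P = 0.00178), and it was called in 8 of 8 fits without a pool. *Slpi*, a protease inhibitor, had 234 UMIs with PancVAX and 9 without it (3.29 ± 0.39). *Cxcl1*, a chemokine for neutrophils, had 85 UMIs with PancVAX and 1 without it, and 3 of the pools without PancVAX were at 0. *Cxcl1* and *Slpi* had too few UMIs to be tested among members within the study's limits on cells, where the tumor and stroma genes summed to 0.206 to 3.16 UMIs per 10000.

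The largest cells carried much of this sum. Within the study's limits on cells (449 members, at most 10000 UMIs and 3000 genes), 41 genes were called, 30 as higher, and 9 of the 31 were among them. *Ccl5* (1.44), *Ifitm1* (3.84), *Gzmb* (1.21), *Il7r* (1.25) and *Cxcl10* (2.03) were called there too, and *Rsad2* (0.61, edgeR adjusted P = 0.324) and *S1pr1* (1.15, edgeR adjusted P = 0.140) were not. Without cells that had myeloid or B cell UMIs (309 members), 5 genes were called. Without the PancVAX, PancVAX with both antibodies, PancVAX with anti-PD-1, both antibodies, anti-PD-1 or isotype control pool, the fit called 8, 11, 73, 17, 6 and 9 genes. With both libraries of a pool entered and the preparation as a block, 17 genes were called. The edgeR adjusted P there was 0.0595 for *Gzmb*, *Ifitm1*, *Gzmk* and *Icos*, 0.0545 for *Klrk1*, 0.106 for *Fasl* and *Itgb1* and 0.117 for *Rsad2*, so these calls were lost. The log2 fold changes of *Gzmb* (1.98), *Ifitm1* (3.78) and *Rsad2* (1.47) stayed about as large.

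A test of the difference between members and other CD8+ T cells found 13 genes whose PancVAX effect was unequal, 12 larger in members and 1 smaller (0.114% of 11356 genes called, 0.106% and 0.00881% by direction). The median of this difference over all genes was 0.11 on the log2 scale. Both cell groups were set by cuts on UMIs, and the part of UMIs per cell in these differences was not tested. *Ifitm1* differed by 3.13 ± 0.48 (edgeR adjusted P = 0.00696): the other CD8+ T cells went from 870 to 1537 CPM without PancVAX to 1909 to 2198 with it, a smaller step from a higher level. *Gzmb* differed by 1.39 ± 0.21 (edgeR adjusted P = 0.00696), and *Cxcl10* by 2.44 ± 0.46 (edgeR adjusted P = 0.0357). The other CD8+ T cells had *Cxcl10* at only 40.7 to 162 CPM in all pools.

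The remaining genes were *Trbv16* (1.72), *Il7r* (1.46), *Cox17* (1.26), *Isg20*, an interferon-induced exonuclease (1.08), *Thy1* (1.08), *Srgn*, which packs granzymes (1.04), *AW112010* (1.01), *Il2rg* (0.95) and *Tmsb10* (0.59). For *Sox9* the PancVAX effect was lower in members than in the others (−1.33). This set was not stable: in the Percoll libraries alone and without the PancVAX or the both-antibodies pool edgeR called 0 genes (429, 906 and 956 at an unadjusted P below 0.05), and in the whole-tumor libraries 111. Without the PancVAX with both antibodies, PancVAX with anti-PD-1, anti-CTLA-4 or isotype control pool it was 56, 4, 34 and 7. Within the study's limits on cells, 15 genes were called as larger in members and 10 as smaller. Most of the genes named above were not among these. Of the interferon-induced effectors 0 of 41 were called there, and of the 14 naive and memory genes 0 as larger and 1 as smaller. *Isg20* and *Il7r* were thus not called as larger. With library totals in place of TMM scaling 31 genes were called, 8 of them as larger in members, and DESeq2 called 44, with 20 larger.

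**Figure D4:**
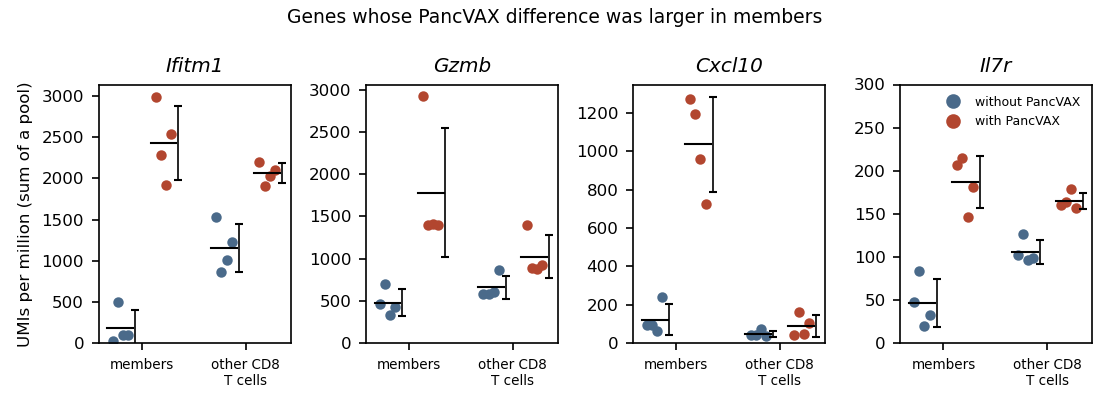
CPM of the summed cells of each pool (vertical axis, from 0) for *Ifitm1*, *Gzmb*, *Cxcl10* and *Il7r* in members and other CD8+ T cells; points are pools without (blue) and with (red) PancVAX, lines are means and error bars SDs (n = 4). Among members the *Cxcl10* pools lie at 61.5 to 241 without and 723 to 1273 with PancVAX, while the other CD8+ T cells stay at or under 162.

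With anti-CTLA-4, 11 genes changed among members, 7 as higher and 4 as lower (0.188% of genes called, 0.12% and 0.0685% by direction). *Cd74* (1.44) and *H2-Aa* (1.52), the invariant chain and an MHC class II gene of antigen-presenting cells, *Olfml3* (4.10), *Col6a1* (2.16) and *Ecm1* (1.40), genes of stroma, and *Msmo1* (1.64) and *Mrpl38* (1.23) were higher. *Gzmf* (−6.15), at 0 to 10.3 CPM with anti-CTLA-4 and 7.93 to 154 without it, *Tnfrsf4*, the costimulatory receptor OX40 (−2.88), *Il1b*, a cytokine of myeloid cells (−1.95), and *Ccrl2* (−1.60) were lower. *Cd74* was at 429, 701, 745 and 1923 CPM in the pools without anti-CTLA-4 and at 1534, 1861, 2030 and 4045 in those with it, so the groups overlapped at 1 pool. Within the study's limits on cells 0 genes were called by edgeR (74 at an unadjusted P below 0.05), and *Cd74* was at −0.21. Without cells that had myeloid or B cell UMIs edgeR called 0 genes as well (227 at an unadjusted P below 0.05), and *H2-Aa* was at −0.0762. The macrophage and monocyte list, which holds *Cd74* and *H2-Aa*, was described above, and its part in these calls was not tested. Without any of the PancVAX, PancVAX with anti-PD-1, PancVAX with anti-CTLA-4, both antibodies, anti-PD-1 or isotype control pools edgeR called 1, 0, 6, 0, 3 and 2 genes (648 and 716 at an unadjusted P below 0.05 where it called 0).

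PancVAX alone was also set against isotype control, in a fit over libraries with a term for the preparation. Only the whole-tumor library of isotype control had the 10 members needed, so this comparison rests on 1 library of that treatment, which was assumed to vary like the other libraries. Of 5190 genes, 5 were called (0.0963%, 0.0578% as higher and 0.0385% as lower), *Ccl5* (2.39), *Gzma* (5.90), *Crip1* (2.27), *Col18a1* (−6.71) and *1110038B12Rik* (−2.88). Without the whole-tumor or the Percoll library of PancVAX edgeR called 0 genes (470 and 581 at an unadjusted P below 0.05), and with library totals in place of TMM scaling it called 11, 3 of them as higher. Nothing further is drawn from these 5 genes.

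The T cell receptors, read from libraries of their own, gave a measure that the rule had not used. Of 258 members in the Percoll libraries, 201 (77.9%) had a TRB chain, against 80.2% of the other CD8+ T cells, and 2.99% and 2.08% of these had 2 TRB sequences. A clone was a TRB V gene with a CDR3 nucleotide sequence within a library, and a clone of at least 3 CD8+ T cells was called expanded. The expanded share was 40.6% ± 16.4 in members and 55.7% ± 10.1 in the other CD8+ T cells (SD, n = 8 libraries), a difference of −15.0 points (exact sign-flip permutation test, two-sided, P = 0.0391). It was lower in members in 7 of 8 libraries.

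The expanded share of members was 36.2%, 39.5%, 40.9% and 36.4% in the libraries with PancVAX, PancVAX with anti-PD-1, PancVAX with anti-CTLA-4 and PancVAX with both. Without PancVAX it was 33.3% in isotype control, 47.1% with anti-PD-1, 75.0% with anti-CTLA-4 and 16.7% with both antibodies. The libraries without PancVAX had 4 to 17 members with a TRB chain, and the 75.0% rested on 4 cells. Members were at 38.2% with and 43.0% without PancVAX (exact permutation P = 0.714, n = 4 libraries each). The other CD8+ T cells were at 48.4% with and 62.9% without it (exact permutation P = 0.0286, n = 4 libraries each), and the contrast between these differences was not tested.

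The difference between members and others did not pass in every setting. Within the study's limits on cells it was −17.5 points (exact permutation P = 0.0625, n = 8), and with at least 3 UMIs of *Ifit1* plus *Ifit3* −10.8 points (exact permutation P = 0.266, n = 8). Leaving out a library gave −18.6 to −9.47 points, and the exact permutation P was 0.0781 without the isotype control, anti-PD-1, both-antibodies, PancVAX with anti-PD-1 or PancVAX with both antibodies library. The value nearest 0 was without the library of both antibodies, whose 12 members held 2 expanded cells.

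**Figure D5:**
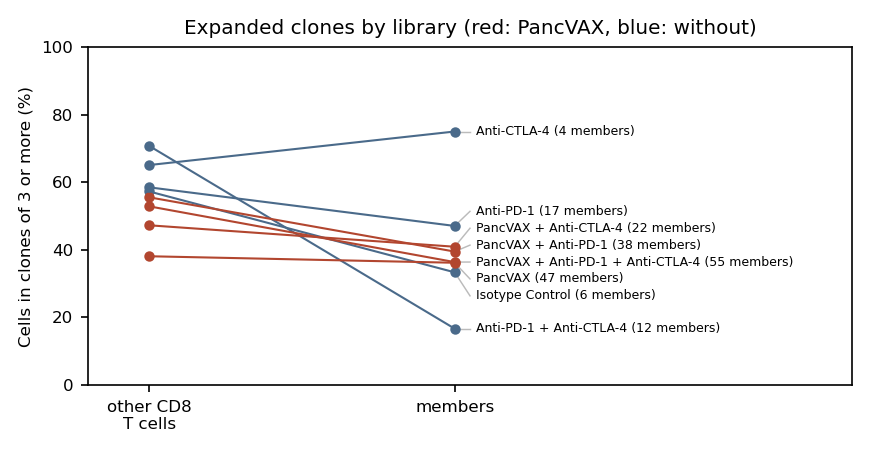
Percentage of cells with a TRB chain that belonged to clones of 3 or more CD8+ T cells (vertical axis), in the other CD8+ T cells and in the members of each of 8 Percoll libraries, with the number of members with a TRB chain. Lines join the values of a library, red with PancVAX and blue without; they fall towards the members in 7 libraries and rise in anti-CTLA-4, which had 4 members.

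Clones with a member were counted by size and by the cells that they held beside it. The 201 members belonged to 184 clones, of which 90 had at least 2 cells. A cell with *Ifit1* and *Ifit3* at 0 was held by 83 of these 90, and since 9160 of the 10255 CD8+ T cells were at 0, nothing is read from this count. Of 60 clones of 10 or more cells, 16 held a member, and members were at most 15.4% of any of them. Only 14 clones held 2 or more members, and the most was 3. The CDR3 sequences of the 3 clones with 3 members, the most of any, are shown because cells with the same receptor stood on both sides of the cut. They are whole, written 5′ to 3′ in lower case.
TRBV16, PancVAX with anti-CTLA-4: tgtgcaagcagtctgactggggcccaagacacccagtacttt
TRBV12-2, PancVAX: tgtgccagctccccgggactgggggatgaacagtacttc
TRBV13-1, PancVAX with both antibodies: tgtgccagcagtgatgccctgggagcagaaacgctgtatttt

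The TRBV16 clone had 25 cells, of which 3 were members and 21 had no UMI of *Ifit1* or *Ifit3*. The TRBV12-2 clone had 9 cells, with 3 members and 6 cells at 0, and the TRBV13-1 clone had 7 cells, with 3 members and 4 at 0. These clones were chosen for their number of members, so their shares describe only themselves.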

How the data were processed

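The data were 16 single-cell RNA libraries and 8 T cell receptor libraries of Panc02 tumors, made with the 10x 5′ kit. The authors counted UMIs with Cell Ranger 4.0.0, and the submitters' processing notes name Seurat and mm10. The counts the authors deposited are UMIs by gene and cell barcode, not normalized, with 5743 to 11979 barcodes and 77132398 to 176233225 UMIs per library, and a barcode's suffix gives its library. The deposited receptor contigs give V genes and CDR3 sequences by barcode.

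Members and gene lists were chosen with earlier results of these data known. No doublet caller was run: alternatives left out cells with myeloid or B cell UMIs, or applied the study's limits (200 to 3000 genes, at most 10000 UMIs, no hemoglobin). Counts of both libraries of a treatment were summed to a pool, since pools and not cells are the replicates. Shares were compared by exact permutation tests (SciPy 1.17.1). Genes were tested with the quasi-likelihood test of edgeR 4.0.16 (R 4.3.3; TMM, filterByExpr), adjusted by the Benjamini-Hochberg method over all genes tested, and called below 0.05 with an absolute log2 fold change above 0.5. The rule genes were left out of calls among members, and the procedure was tested on simulated data. Alternatives were DESeq2 1.42.0, library totals, no filter on low counts, a minimum of 1 or 3 *Ifit* UMIs, thinned cells, 5% mitochondrial UMIs, each preparation alone, the preparation as a block, other clone definitions, and leaving out each pool or library. Named genes were list members past the call rule, up to 6 members by mean count of each main list, up to 5 largest rises and falls, and the 15 highest and 10 lowest ratios. Libraries share the number of their preparation, which is also the sequencing batch, and this pairs them. Promoters are from RefSeq, GRCm38.p6. Some genes of the lists are not reported here.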

Additional observations from a re-analysis of the deposited data

Results flagged for a closer look

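In 72 groups of 4 pools, the highest or lowest pool was compared with the spread of the others by Dixon's criterion, and 10 groups had a pool that stood apart. Chance gives about 1 in 20 groups. PancVAX alone stood apart in the share of members among CD8+ T cells (10.2%, next 6.04%) and in the share of CD4+ T cells with *Ifit1* plus *Ifit3* at 2 UMIs or more (7.52%, next 2.25%). PancVAX alone also stood apart in CPM of members for *Gzmb* (2931), *Dusp2* (1245), *Lat* (575), *Gramd3* (346) and *Fam102a* (121). Among the pools without PancVAX, anti-PD-1 stood apart for *Ifitm1* (503) and *Emb* (109), and both antibodies for *Cxcl1* (3.65, which is 1 UMI).

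The PancVAX effect on the share differed between cell types, by 4.77 points between CD8+ and CD4+ T cells and by 5.03 points between CD8+ T cells and macrophages, each by an exact permutation test (P = 0.0286, n = 4 pools each). These P values were not adjusted and are the smallest that the design can give. Few CD4+ T cells reached the cut in any pool. The contrast of CD8+ and CD4+ T cells did not pass in the Percoll libraries alone or when a PancVAX pool was left out. Both differences were smaller when cells were thinned to 1000 UMIs. The PancVAX effect on a gene differed between members and other CD8+ T cells, on the log2 scale, for *Ifitm1* (3.13), *Cxcl10* (2.44), *Trbv16* (1.72), *Il7r* (1.46), *Gzmb* (1.39), *Cox17* (1.26), *Isg20* (1.08), *Thy1* (1.08), *Srgn* (1.04), *AW112010* (1.01), *Il2rg* (0.95), *Tmsb10* (0.59) and *Sox9* (−1.33). For *Trbv16* the members were at 36.5 to 72.4 CPM with PancVAX and 21.1 to 51.1 without it, and the other CD8+ T cells at 71.3 to 93.5 and 99.7 to 243. For *AW112010* they were at 1198 to 2271 and 994 to 1613, and the others at 1396 to 1866 and 2216 to 2269. The other CD8+ T cells thus had lower levels of both genes with PancVAX, where *AW112010* (−0.59) was called and *Trbv16* (−0.96, edgeR adjusted P = 0.0557) was not, and the fit of the members alone called neither. Within the study's limits on cells most of these genes were not called, and *Isg20* and *Il7r* were not called as larger in members.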

How the results depend on the processing

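Of the results for whole comparisons, 145 alternative values kept the direction and the side of the threshold or stayed within 1.5 times, 57 counts moved further, 14 lost the call and 15 changed sign. Of the values for single genes, 3964 kept direction and call or stayed uncalled, 768 lost the call and 62 gained it. In 3 the sign changed where the main or the alternative fit called the gene. Changes of sign in genes that neither fit called are among the 3964. The cause was not tested except where fewer cells or genes entered by construction. Within cells with *Ly6c2*, chosen after seeing the data, the PancVAX difference in share was 3.72 points, and within cells without it 0.569. CD8+ minus CD4+ T cells was 3.65 in Percoll libraries and 3.61 to 5.84 when a pool was left out. The anti-PD-1 difference in share ranged from −1.82 to 1.30 when a pool was left out. The CD4+ T cell difference was 0.423 in thinned cells, 0.581 in Percoll libraries and −1.56 to 0.903 without a pool. The macrophage difference was 0.121 in thinned cells, 0.0124 in whole-tumor libraries and −1.42 to 0.00472 without a pool.

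The expanded share of members minus others was −17.5 within the study's limits, −10.8 at 3 or more UMIs, and −18.6 to −9.47 without a library. The PancVAX difference in expanded members was 0.440 with TRA and TRB both, 3.71 within the study's limits, and −13.6 to 5.88 without a library.

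For genes changed by PancVAX among members (31), DESeq2 called 59 (29 shared), no filter on low counts 308, cells without myeloid or B cell UMIs 5, whole-tumor libraries 11, Percoll libraries 2, and fits without a pool 6 to 73. *Ifitm3* turned from −0.24 to 1.41 within the study's limits and was called there. For anti-PD-1 (0), no filter gave 84, Percoll libraries 1, 3 or more UMIs 34, and fits without a pool 0 to 4. For anti-CTLA-4 (11), no filter gave 162, Percoll libraries 1, and edgeR called 0 within the study's limits, 0 without cells with myeloid or B cell UMIs and 0 in whole-tumor libraries (74, 227 and 96 at an unadjusted P below 0.05). Fits without a pool gave 0 to 15. *H2-Aa* was at −0.0762 without cells with myeloid or B cell UMIs, and *Cd74* at −0.21 within the study's limits. For PancVAX against isotype control (5), DESeq2 called 27, library totals 11, no filter 215, and fits without a PancVAX library 0 to 0 by edgeR (470 and 581 at an unadjusted P below 0.05). That comparison could not be run without the isotype control library, with only the libraries compared, within the study's limits or at 3 or more UMIs, since too few libraries had 10 members.

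For the difference between members and others (13), DESeq2 called 44, library totals 31, no filter 180, the study's limits 25 (2 shared), whole-tumor libraries 111, Percoll libraries 0 (429 at an unadjusted P below 0.05), and fits without a pool 0 to 56. For the other CD8+ T cells (552) the study's limits gave 1014. It was 860 without PancVAX alone, 343 without PancVAX and both antibodies, 311 without PancVAX and anti-CTLA-4, 310 without both antibodies, 364 without anti-CTLA-4 and 346 without anti-PD-1, a range of 310 to 860. For all CD8+ T cells (578) the study's limits gave 1076, and fits without a pool 356 to 823.

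With 16 libraries and the preparation as a replicate block, PancVAX changed 17 genes among members, 10 of them shared with the 31, and anti-CTLA-4 changed 5. In PancVAX against isotype control, 7 genes were called with no replicate block, against 5 with it. Depth limits the genes tested among members: the pools without PancVAX held 83 members, 9 to 33 each, and a gene under the filter was not tested.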
